A study of Mus musculus with 24 samples.

Results

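*Bmal1* silencing was compared with control silencing in AML-12 cells, an established line of mouse hepatocytes made from the liver of mice that carry a transgene for human TGF-alpha. Members were chosen by the library labels: the 4 libraries of the BMAL1 group and the 4 of the CON group, 8 of the 24 libraries in the series, with the summary lines of the counting tool left out. CON cells received 200 nM of endoribonuclease-prepared small interfering RNA (esiRNA, a pool of short double-stranded RNAs) against *Egfp*, a gene that mouse cells lack. BMAL1 cells received 100 nM of esiRNA against *Bmal1*. Both groups were held for 48 hours in 0.25 mM palmitate, a saturated fatty acid used to load hepatocytes with fat, and received the esiRNA for the last 24 hours, so that neither group is free of palmitate or of transfection. The doses differed, so that the esiRNA dose and its target cannot be told apart in this comparison. The libraries of both groups came from column 2 of the library plate, with CON in rows A to D and BMAL1 in rows E to H, and plate row and target cannot be told apart either. CHREBP cells (100 nM of esiRNA against *Chrebp*) and BOTH cells (200 nM in all, against *Bmal1* and *Chrebp*), in column 3 with the same palmitate, are used below only as a second setting for the same *Bmal1* esiRNA. PAL cells (the same palmitate, no esiRNA, column 1) are used only for levels. The comparison addressed which transcripts depend on *Bmal1* in fat-loaded hepatocytes.

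BMAL1 is the basic helix-loop-helix factor that pairs with CLOCK, binds E-box sequences and drives transcription of its own repressors, the PER and CRY proteins and the nuclear receptors REV-ERB alpha and beta. The REV-ERB receptors act in turn on the *Bmal1* promoter, which closes a second loop. In the liver, the loop sets daily rhythms of lipid, bile acid and glucose metabolism. Interferon-stimulated genes, to which many of the genes below belong, are a separate program: sensors of double-stranded RNA such as RIG-I, MDA5 and LGP2 lead to secretion of interferon, and interferon receptors act through STAT2 and IRF9 on promoters that hold an interferon-stimulated response element (ISRE).

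Expression was measured by BRB-seq, in which the 3′ ends of mRNAs are barcoded, pooled and sequenced, and each value was a whole-number count of reads per gene and library. Total gene counts were between 6512750 and 11237474 in CON and between 5570803 and 8167434 in BMAL1 (2-sided exact permutation p = 0.2, n = 4 per group), and 14496 to 15644 genes were detected in a library. Normalized counts are counts divided by the DESeq2 size factors of the 16 esiRNA libraries, log2 fold changes are BMAL1 over CON in a fit of those 16 libraries, and a gene rose or fell where its adjusted p (*Padj*) was under 0.1. The labels do not say that replicates were separate cultures, so the p-values measure the spread between these libraries, which may be technical. The hepatocyte label was checked against markers. *Alb* was at 133 to 200.1 normalized counts in CON and 135 to 188 in BMAL1, and the 18 hepatocyte genes summed to 7572 to 7778 CPM (counts scaled to library size) in CON and 7320 to 7456 CPM in BMAL1. The 7 biliary markers summed to 2054 to 2152 CPM in CON and 2163 to 2273 CPM in BMAL1, so that both sums were close in size but did not overlap between the groups. Of the markers of other cells, 6 of 7 endothelial genes, 4 of 9 stellate genes and 5 of 10 macrophage and leukocyte genes, among them *Adgre1* and *Cd3e*, had no read in any of the 8 libraries. The sums over the macrophage and leukocyte list were 79.6 to 87.7 CPM in CON and 71.1 to 86.9 CPM in BMAL1, most of it from *Cd14*. One library stood apart from its group: CON replicate 1 had the lowest interferon-stimulated transcripts of the 4 CON libraries, and the interferon results are given below with and without it.

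The targeted transcript was examined first. *Bmal1* is listed as *Arntl* (ENSMUSG00000055116, GRCm38 chromosome 7, 113207465 to 113314126, + strand), a protein-coding gene with an annotated gene on the other strand. In CON replicates 1 to 4, *Arntl* was at 58.2, 50, 42.6 and 30.6 normalized counts, and the BMAL1 libraries were at 23.4, 22.6, 26.2 and 33.4. The BMAL1 libraries lay below those of CON except that BMAL1 replicate 4 was above CON replicate 4. Means were 45.4 ± 11.7 and 26.4 ± 4.92 (SD, n = 4), lower by 41.8% in BMAL1, with a log2 fold change of -0.78 (SE 0.28). The 2-sided exact permutation test on log2(normalized count + 1) gave p = 0.0571, where 0.0286 is the smallest value that 4 against 4 libraries allow. DESeq2 gave an unadjusted p of 0.00496, and its filter on low means left the gene without a *Padj*. At 17 to 73 counts per library, the silencing was measured with little precision. *Mlxipl*, which encodes CHREBP and was not targeted here, was at 36.1 ± 7.36 in CON and 35.7 ± 8.81 in BMAL1 (SD, n = 4), with overlapping libraries.

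Of 11 tested clock repressors and 12 clock outputs, 0 rose and 0 fell, where 0.166% of all tested genes rose and 0.324% fell. Of the 23 genes, 4 had an unadjusted DESeq2 p under 0.05, where 864 of all 13883 tested genes had one. The repressor *Cry1* was at 50.02, 36.3, 35.9 and 50.6 in CON and 57.8, 54.96, 64.1 and 89.1 in BMAL1, without overlap, but its mean over the 16 libraries was too low for a *Padj* (log2 fold change 0.64, SE 0.24). *Per1*, another repressor, overlapped between the groups (log2 fold change 0.53, SE 0.25). The direct E-box target *Dbp* was at 70.1 ± 20.1 in CON and 66.7 ± 12.4 in BMAL1 (SD, n = 4; log2 fold change -0.08, SE 0.21), and *Nr1d1*, which encodes REV-ERB alpha, at 33.2 ± 12.6 and 33.1 ± 6.75 (log2 fold change 0.03, SE 0.30). The 95% interval of the *Dbp* value ran from -0.49 to 0.33, so that a fall or a rise within these bounds is compatible with the counts. The interval is not a limit of detection. *Nampt*, a clock output that makes NAD, was at 234, 421, 428 and 395 in CON and 238, 237, 271 and 298 in BMAL1, and CON replicate 1 was below every BMAL1 library while the other 3 CON libraries were above them all (log2 fold change -0.50, *Padj* = 0.495, and -0.67 with *Padj* = 0.00726 without CON replicate 1). Because CON replicate 1 was singled out after its values were seen, the smaller *Padj* is not counted as a call.

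**Figure D1:**
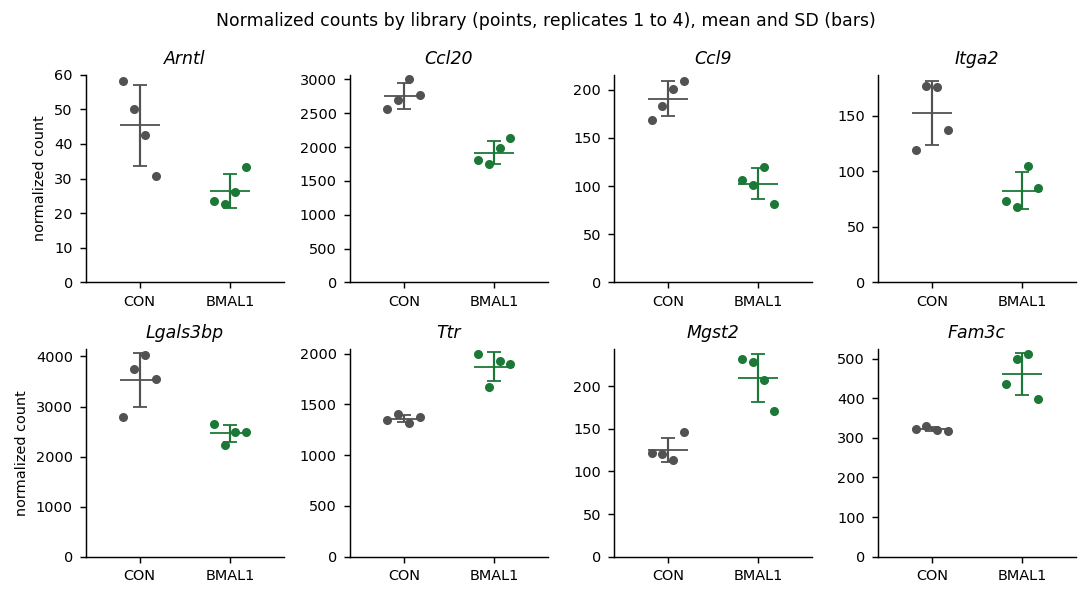
Normalized counts (y axis, from 0) of 8 genes in the 4 CON and 4 BMAL1 libraries (x axis), with points for replicates 1 to 4 from left to right and bars for the mean and SD. The groups overlap for *Arntl*, and do not overlap for *Ccl20*, *Ccl9*, *Itga2* and *Lgals3bp*, which were lower in BMAL1, or for *Ttr*, *Mgst2* and *Fam3c*, which were higher.

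Across all genes, 68 of 13883 tested were called at *Padj* under 0.1 (0.490%), 23 higher in BMAL1 (0.166%) and 45 lower (0.324%). The median log2 fold change of all genes was -0.005. The falls were the larger changes: 22 of the 45 genes that fell and 0 of the 23 that rose changed by at least 2-fold, and 864 genes had an unadjusted p under 0.05. Of the 68 genes, 46 had no overlap between the groups, 23 in each direction, where 5.40% of all tested genes had none (2.80% lower and 2.60% higher). All 23 genes that rose were among these 46. Of the 45 genes that fell, 19 belonged to 10 lists of the interferon response and 26 did not. Leaving out any 1 library other than CON replicate 1 left 16 to 32 called genes, leaving out CON replicate 1 gave 107, and edgeR's quasi-likelihood test called 14 (0.101%), all among the 68, including *Ccl20*, *Ccl9*, *Fam3c*, *Ifit1*, *Ifit3*, *Irgm2*, *Itga2*, *Lgals3bp*, *Mgst2*, *Mx2*, *Rtp4*, *Ttr* and *Usp18*. In each of the 8 fits that leave out 1 library, 8 genes were called throughout, including *Ccl20*, *Fam3c*, *Irgm2*, *Lgals3bp*, *Mx2*, *Ttr* and *Usp18*. DESeq2 fitted to the 8 compared libraries alone called 144 genes (1.11%), 70 higher and 74 lower, of which 52 were among the 68 and 9 were interferon-list falls.

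**Figure D2:**
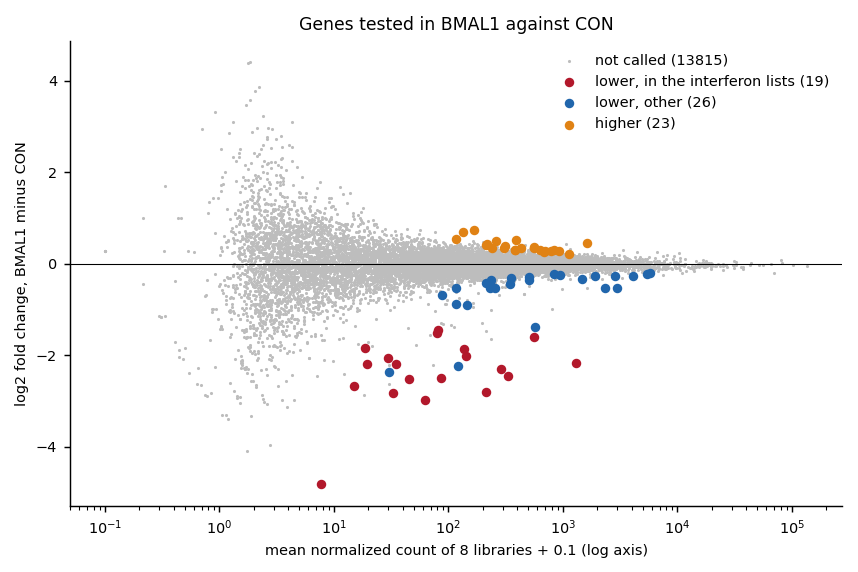
Log2 fold change of BMAL1 against CON (y axis) against the mean normalized count over the 8 libraries (x axis, log scale) for the 13883 tested genes, with called genes in colour. The 19 interferon-list genes lie between -4.82 and -1.44, and the 23 genes that rose lie between 0.22 and 0.74.

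Interferon-stimulated genes made up the largest falls. Of 96 tested members of the 10 interferon lists, 19 fell (19.8%, against 0.324% of all tested genes), 0 rose and 77 did not pass, and 88 had a negative log2 fold change, against 51.1% of all tested genes. The median log2 fold change of the 96 was -0.80. The lists were chosen with earlier results of these data known, so the shares here and below are no independent evidence. The shares are also not like for like, because the DESeq2 filter took the mean over 16 libraries (79.9 normalized counts were needed for a *Padj*), CHREBP and BOTH included. Of the 19 genes, 10 (*Cmpk2*, *Dhx58*, *Ifi44*, *Ifitm3*, *Mx2*, *Oas1b*, *Oas3*, *Oasl1*, *Tgtp1* and *Zbp1*) had a mean below that level in CON and BMAL1 and got a *Padj* only through their higher levels in CHREBP and BOTH, as did *Apol9a* outside the lists. Among genes at or above that level in CON and BMAL1, 9 of 51 interferon-list genes fell (17.6%), against 34 of all 8475 (0.401%). With the filter off, 26 genes fell, 13 of them in the interferon lists, and *Zbp1* and *Oas3* were among the 13. Genes whose groups did not overlap were nevertheless about as frequent among the 96 (3 genes, *Irgm2*, *Ifit2* and *Erap1*, all lower) as among all tested genes (2.80% lower). In all 19 genes that fell, CON replicates 2, 3 and 4 were above every BMAL1 library, CON replicate 1 was the lowest CON library, and in 18 of the 19 CON replicate 1 lay within or below the range of BMAL1. The mean over the 96 genes of log2(normalized count + 1), with the counts scaled over all 24 libraries, was 5.40, 7.00, 7.07 and 6.35 for CON replicates 1 to 4 and 5.65, 5.46, 5.52 and 5.79 for those of BMAL1.

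Promoters of 4 of these genes are shown for the ISRE letters they hold. Each line gives the 250 bases before the RefSeq transcription start (GRCm38.p6), with matches to GAAANNGAAA on either strand in capitals. They lie at chr19:34640639-34640888 on the + strand for *Ifit1*, chr19:34583279-34583528 on the + strand for *Ifit3*, chr11:58214727-58214976 on the + strand for *Irgm2* and chr5:120777660-120777909 on the - strand for *Oas3*.
Ifit1: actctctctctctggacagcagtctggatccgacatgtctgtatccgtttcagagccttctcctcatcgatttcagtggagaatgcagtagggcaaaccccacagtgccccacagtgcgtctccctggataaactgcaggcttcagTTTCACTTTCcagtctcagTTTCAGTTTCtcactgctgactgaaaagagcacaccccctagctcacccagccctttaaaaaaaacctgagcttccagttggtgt
Ifit3: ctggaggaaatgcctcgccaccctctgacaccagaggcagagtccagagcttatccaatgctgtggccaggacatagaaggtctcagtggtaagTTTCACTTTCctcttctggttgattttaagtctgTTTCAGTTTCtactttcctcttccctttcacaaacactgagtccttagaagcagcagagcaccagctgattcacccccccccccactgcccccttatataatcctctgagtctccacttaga
Irgm2: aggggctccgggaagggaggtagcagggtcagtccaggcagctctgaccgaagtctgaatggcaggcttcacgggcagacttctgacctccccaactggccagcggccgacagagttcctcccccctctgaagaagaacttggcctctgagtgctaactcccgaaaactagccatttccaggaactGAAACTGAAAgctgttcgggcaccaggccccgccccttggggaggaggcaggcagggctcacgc
Oas3: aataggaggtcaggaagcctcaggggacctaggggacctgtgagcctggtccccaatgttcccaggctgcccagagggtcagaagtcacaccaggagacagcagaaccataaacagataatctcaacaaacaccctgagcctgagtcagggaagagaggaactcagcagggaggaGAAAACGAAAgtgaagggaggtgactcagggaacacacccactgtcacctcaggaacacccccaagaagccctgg

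The 2 matches of *Ifit1* begin 104 and 85 bases before the start and those of *Ifit3* 156 and 122 bases before it, while *Oas3* and *Irgm2* hold 1 each, 75 and 64 bases before the start. Of the 19 genes, 13 had a promoter in the RefSeq table, and 7 of these (*Ifit1*, *Ifit3*, *Ifit3b*, *Ifitm3*, *Irgm2*, *Oas3* and *Tgtp1*) held the letters within 250 bases before to 50 after the start. This window held them for 30 of 70 matched genes among all 96 tested interferon-list genes (42.9%), which include the called genes. It held them for 3.99% of the 27025 promoter symbols, for 1 of 23 matched genes among the other falls (*Apol9a*) and for 0 of 16 matched genes that rose. A match is a description of letters and not evidence of binding.

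The antiviral effectors held the most falls, 8 of 15 tested. *Ifit1* (ENSMUSG00000034459, GRCm38 chromosome 19, 34640871 to 34650009, + strand), whose protein binds viral RNA that lacks the host cap, was at 364, 3196, 3287 and 1731 normalized counts in CON and at 465, 380.4, 494 and 580.2 in BMAL1. CON replicate 1 was below every BMAL1 library and the other 3 CON libraries were above all of them (log2 fold change -2.16, SE 0.49, *Padj* = 0.00605). *Ifit3* was at 79.1, 875, 891 and 406 in CON and 71.6, 124, 91.3 and 125 in BMAL1 (log2 fold change -2.45, SE 0.54, *Padj* = 0.00485). *Ifit3b*, a close copy of *Ifit3* with which reads may be shared, had a log2 fold change of -2.29 (SE 0.60, *Padj* = 0.0486). *Mx2*, a dynamin-like antiviral GTPase that the annotation lists as a polymorphic pseudogene, was at 18.2, 172, 172 and 77.7 in CON and 4.13, 20.5, 13.6 and 17.6 in BMAL1, with a log2 fold change of -2.96 (SE 0.59, *Padj* = 8.07e-04). It was called in each of the 8 fits that leave out 1 library. The others were *Ifi44* (-2.81), *Cmpk2* (-2.51), a mitochondrial nucleotide kinase, *Ifitm3* (-2.19), which blocks virus entry at membranes, and *Xaf1* (-1.87), all as log2 fold changes with *Padj* between 0.0119 and 0.0691.

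Regulators of the response were also among the falls. *Usp18* (ENSMUSG00000030107, GRCm38 chromosome 6, 121245906 to 121270917, + strand), a protease that removes ISG15 and dampens interferon receptor signaling, was at 35.5, 588, 570.5 and 291 in CON and 49.6, 48.5, 51.5 and 64.98 in BMAL1. The 4 BMAL1 libraries lay close together, and CON replicate 1 was below them and the other CON libraries far above (log2 fold change -2.79, SE 0.57, *Padj* = 0.00132). *Irf7*, which amplifies interferon gene transcription, was at 45.5, 361, 346 and 162 in CON and 66.1, 18.3, 66.03 and 75.2 in BMAL1, with a log2 fold change of -2.02 (SE 0.56, *Padj* = 0.0691). BMAL1 replicate 2 was the lowest of the 8 for *Irf7*. Neither subunit of the type I interferon receptor passed, with log2 fold changes of 0.15 (SE 0.13) for *Ifnar1* and -0.09 (SE 0.10) for *Ifnar2*. The interferon genes themselves were at the limit of detection: *Ifnb1* had 0, 4, 1 and 0 counts across the CON replicates and 0 in each BMAL1 library, and *Ifna4*, *Ifnl2* and *Ifnl3* had 0 counts in all 8 libraries, where 3 counts correspond to 0.267 to 0.539 CPM.

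Of 10 sensors of foreign nucleic acid and their adaptors, 2 fell. *Dhx58*, which encodes LGP2, was at 4.55, 91.8, 92.7 and 41.2 in CON and 6.88, 12.9, 14.6 and 15.8 in BMAL1 (log2 fold change -2.19, SE 0.63, *Padj* = 0.0881). *Zbp1*, a sensor of Z-form nucleic acid, had a log2 fold change of -2.68 (SE 0.71, *Padj* = 0.0486), also having passed the filter through CHREBP and BOTH. *Ddx58* and *Ifih1*, which encode RIG-I and MDA5, had log2 fold changes of -0.78 (SE 0.28) and -0.87 (SE 0.33) and did not pass (*Padj* = 0.268 and 0.370). The oligoadenylate synthetases, which activate RNase L when they meet double-stranded RNA, had 4 falls among 9 tested members of their list. *Oas3* had 75 reads in CON and 2 in BMAL1, with at most 1 in a BMAL1 library, which is a CON-to-BMAL1 ratio of 30.3 after division by total counts (95% exact interval 8.11 to 255, counting error only). CON replicate 1 had no *Oas3* read, and the fitted log2 fold change of -4.82 (SE 1.29, *Padj* = 0.0560) rests on those few reads and passed the filter through its higher counts in CHREBP and BOTH. *Oasl2* was at 13.6, 223, 262 and 91.8 in CON and 27.5, 19.4, 21.4 and 36.2 in BMAL1 (log2 fold change -2.50, SE 0.61, *Padj* = 0.0217). The remaining pair were *Oas1b* (-2.06), which has near-identical relatives in mouse, and *Oasl1* (-1.50), on the log2 scale with *Padj* = 0.0290 and 0.0881.

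*Irgm2* (ENSMUSG00000069874, GRCm38 chromosome 11, 58199618 to 58222782, + strand), an immunity-related GTPase that acts on vacuoles of intracellular pathogens, was the 1 called interferon-list gene whose groups did not overlap. It was at 57.3, 145, 145 and 129 in CON and 35.8, 35.6, 46.6 and 56.6 in BMAL1, and the gap between CON replicate 1 and BMAL1 replicate 4 was under 1 normalized count (log2 fold change -1.44, SE 0.30, *Padj* = 0.00141). The gene overlaps *Igtp* on the same strand, so that its reads may be shared. *Tgtp1*, the other call among 8 tested GTPases of this family, had a log2 fold change of -1.83 (SE 0.48, *Padj* = 0.0498) and has a near-identical copy. *Usp18* was also the 1 call among 5 genes of ISG15 conjugation. No member of 4 further lists passed: 8 guanylate-binding proteins (median log2 fold change -1.45), 17 genes of antigen presentation on MHC class I (-0.33), 7 antiviral PARPs (-0.64) and 4 interferon-induced chemokines (-0.95). The lowest unadjusted p in these lists were those of *Gbp2* (-1.55, *Padj* = 0.113), *Tap1* (-1.39, *Padj* = 0.105), *Parp12* (-1.01, *Padj* = 0.215) and *Cxcl10* (-1.65, *Padj* = 0.253), as log2 fold changes. *Cxcl10* was at 55.5, 526, 604 and 246 in CON and 110.1, 111, 104 and 131 in BMAL1.

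**Figure D3:**
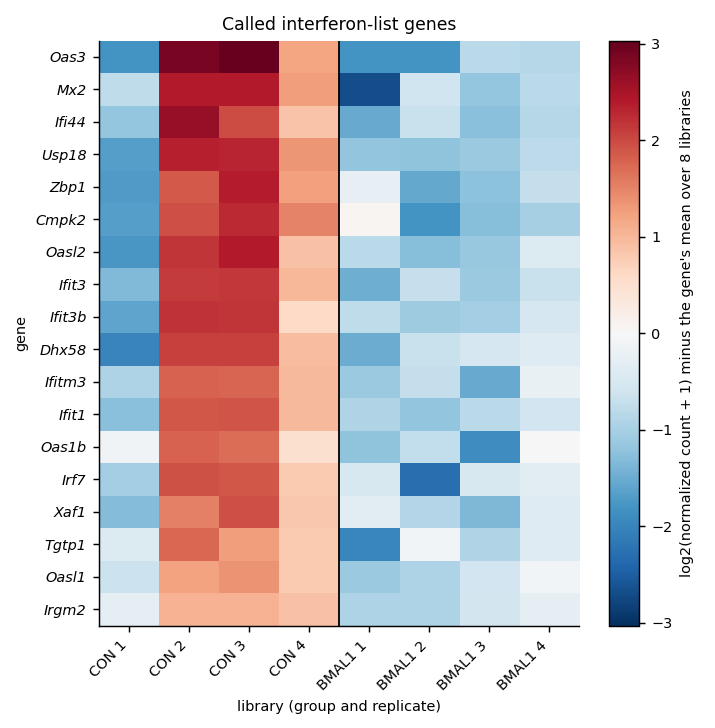
Level of 18 of the 19 called interferon-list genes (rows) in the 4 CON and 4 BMAL1 libraries (columns), as log2(normalized count + 1) minus the mean of the gene over the 8 libraries. In all 18 genes CON replicates 2 and 3 are the highest, CON replicate 4 comes next, and CON replicate 1 is the lowest CON library.

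CON replicate 1 was singled out because its interferon-stimulated transcripts were the lowest in CON, so that larger falls and smaller *Padj* of these genes without it follow from that choice and are no further evidence for them. Without it, 107 genes were called (0.777% of 13777 tested), 22 higher (0.160%) and 85 lower (0.617%), and 43 of the 85 were in the interferon lists. Of the 68 genes called with all libraries, 49 were also called without it, 38 of the falls and 11 of the rises. The log2 fold change moved from -2.79 to -3.17 for *Usp18* (*Padj* = 7.39e-21) and from -2.16 to -2.51 for *Ifit1* (*Padj* = 5.55e-14). All 19 interferon-list genes were among the 43. The further 24 included *Ddx58* (*Padj* = 5.99e-08), *Ifih1* (0.0849), *Stat2* (0.00346), *Irf9* (1.12e-07), *Mx1* (0.00314), *Gbp2* (5.74e-05), *Tap1* (0.0242) and *Cxcl10* (0.00254). The median of the 96 interferon-list genes was then -1.08. In total counts, share of reads not aligned and share of mitochondrial counts, CON replicate 1 was at 8425694, 26.8% and 3.87%, where the other 3 CON libraries ranged from 6512750 to 11237474, 26.7% to 27.5% and 3.49% to 3.60%.

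Outside the interferon lists, 26 genes fell, 22 of them without overlap between the groups. They included a pair of chemokines, an EGF receptor ligand and an integrin. *Ccl20* (ENSMUSG00000026166, GRCm38 chromosome 1, 83116766 to 83119167, + strand), a chemokine that attracts CCR6-positive lymphocytes, was at 2555, 2689.7, 3008 and 2769 in CON and 1816, 1744, 1982 and 2132 in BMAL1. Every BMAL1 library was below every CON library, the mean was lower by 30.4%, and the log2 fold change was -0.52 (SE 0.08, *Padj* = 5.83e-07). *Ccl9* (ENSMUSG00000019122, GRCm38 chromosome 11, 83572919 to 83578636, - strand), a CCR1 ligand, was at 169, 184, 201 and 209 in CON and 106, 101, 120.4 and 81.7 in BMAL1 (log2 fold change -0.90, SE 0.16, *Padj* = 1.87e-05). These were the 2 calls among 12 tested inflammatory chemokines and cytokines. *Ccl7* (-0.27, *Padj* = 0.529) and *Il33* (-0.37, *Padj* = 0.294) did not overlap either but did not pass, and *Ccl2* was at 6307 ± 411 in CON and 5860.5 ± 686 in BMAL1 (SD, n = 4, *Padj* = 0.875). *Areg*, an EGF receptor ligand, was at 130.1, 86.3, 109 and 109 in CON and 64.7, 63.6, 82.5 and 58.5 in BMAL1 (log2 fold change -0.68, SE 0.19, *Padj* = 0.0596), and was called in 2 of 8 fits that leave out 1 library.

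*Itga2* (ENSMUSG00000015533, GRCm38 chromosome 13, 114833081 to 114932100, - strand), the alpha 2 chain of a collagen receptor, was at 119, 177, 176 and 138 in CON and 72.97, 67.9, 105 and 85.4 in BMAL1. Its mean was lower by 45.8% without overlap (log2 fold change -0.88, SE 0.18, *Padj* = 0.00141), and it was called in 7 of 8 fits that leave out 1 library. It was the 1 call among 12 integrin chains. *Itgav* was at 352 ± 16.9 in CON and 444 ± 37.3 in BMAL1 (SD, n = 4; log2 fold change 0.33, *Padj* = 0.257), without overlap and in the other direction. *Lamb3*, a laminin chain of epithelial basement membranes, was the 1 call among 15 matrix genes, at 229, 275, 257 and 211 in CON and 179, 192, 190.3 and 173 in BMAL1 (log2 fold change -0.41, SE 0.12, *Padj* = 0.0862); it overlaps other annotated genes on its own strand. *Lgals3bp* (ENSMUSG00000033880, GRCm38 chromosome 11, 118392751 to 118402092, - strand), a secreted galectin-binding glycoprotein that interferon also induces in many cells, was at 2789, 3745, 4031 and 3551 in CON and 2646, 2239, 2492 and 2488 in BMAL1. CON replicate 1 was again the lowest CON library, and the log2 fold change was -0.52 (SE 0.11, *Padj* = 0.00300) with it and -0.61 (*Padj* = 7.20e-06) without it.

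*Lmcd1*, *Sdhaf3*, *Hmga2* and *Tnnt2* also fell, and were chosen by the rule for named genes, which required no overlap of the groups. *Lmcd1*, a LIM-domain cofactor, was at 270.1, 309.6, 361 and 267 in CON and 186, 191, 237 and 220.0 in BMAL1 (log2 fold change -0.53, SE 0.13, *Padj* = 0.0216). *Sdhaf3*, an assembly factor of succinate dehydrogenase, was at 258, 246, 266 and 322 in CON and 176, 221, 218 and 142 in BMAL1 (log2 fold change -0.52, SE 0.13, *Padj* = 0.0290). *Hmga2*, a chromatin protein of proliferating and fetal cells, and *Tnnt2*, a troponin of heart muscle, had log2 fold changes of -0.43 (SE 0.12, *Padj* = 0.0827) and -0.42 (SE 0.11, *Padj* = 0.0560). *Tnnt2* was at 235, 274, 285 and 261 in CON and 204, 197, 202 and 187 in BMAL1. Of the remaining falls, *Rtp4* (-2.24), *Apol9a* (-2.36) and *Ifi202b* (-1.38), genes of interferon type that the lists do not hold, had the largest log2 fold changes and the same dip in CON replicate 1. The 12 others that fell without overlap lay between -0.36 and -0.20 on the log2 scale. Among them, named after their values were seen, were *Cdkn2b* (-0.35), an inhibitor of CDK4 and CDK6, *Emp1* (-0.33), an epithelial membrane protein, *Mif* (-0.26), a cytokine, and *Ybx3* (-0.23), an RNA-binding protein.

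*Klf15* (ENSMUSG00000030087, GRCm38 chromosome 6, 90462576 to 90475238, + strand), also named after its values were seen, encodes a transcription factor, a regulator of amino acid and glucose metabolism in liver that follows the clock. It was at 154, 134, 115 and 148 in CON and 78.5, 90.5, 89.3 and 118 in BMAL1, where BMAL1 replicate 4 was above CON replicate 3, with a log2 fold change of -0.53 (SE 0.15, *Padj* = 0.0881). It was called in 1 of the 8 fits that leave out 1 library. Its RefSeq promoter held the E-box letters CACGTG, which BMAL1 and CLOCK bind, at 3 places, more than in any other called gene of the RefSeq table. They begin 228, 172 and 3 bases before the start. The promoter of *Fam3c*, which rose, held them 238 bases before the start. Both are shown as the 250 bases before the start in GRCm38.p6, at chr6:90462326-90462575 on the + strand for *Klf15* and chr6:22356082-22356331 on the - strand for *Fam3c*, with CACGTG in capitals (the third match of *Klf15* runs past the end of the stretch shown).
Klf15: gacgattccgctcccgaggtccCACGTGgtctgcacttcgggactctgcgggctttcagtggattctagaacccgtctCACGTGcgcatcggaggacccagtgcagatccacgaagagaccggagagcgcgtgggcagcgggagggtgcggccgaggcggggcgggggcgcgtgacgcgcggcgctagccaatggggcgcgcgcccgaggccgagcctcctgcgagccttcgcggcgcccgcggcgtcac
Fam3c: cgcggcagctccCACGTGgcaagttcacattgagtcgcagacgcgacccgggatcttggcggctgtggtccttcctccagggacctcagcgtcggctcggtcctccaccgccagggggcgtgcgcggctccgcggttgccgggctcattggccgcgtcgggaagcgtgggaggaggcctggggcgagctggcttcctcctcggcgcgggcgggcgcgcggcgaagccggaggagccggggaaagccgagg

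The letters CACGTG occurred in 8.09% of the 27025 promoter symbols. They occurred in 0 of 13 matched interferon-list falls, in 1 of 23 other falls and in 3 of 16 rises (*Abcf1*, *Fam3c* and *Pdxk*).

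The 23 genes that rose changed by less. *Ttr* (ENSMUSG00000061808), which encodes transthyretin, the hepatocyte carrier of thyroxine and of the retinol-binding protein, was at 1342, 1404, 1318 and 1375 in CON and 1996, 1671, 1924 and 1895 in BMAL1. The mean was higher by 37.6% and the lowest BMAL1 library was well above the highest CON library (log2 fold change 0.46, SE 0.07, *Padj* = 5.83e-07). It was the 1 call among 18 hepatocyte genes, of which *Alb* was at 170.4 ± 28.8 in CON and 159.9 ± 22.02 in BMAL1 (SD, n = 4), *Hnf4a* at 1353 ± 40.7 and 1365 ± 82.7 and *Trf* at 6870.3 ± 371 and 6759 ± 439. *Mgst2* (ENSMUSG00000074604, GRCm38 chromosome 3, 51660360 to 51682677, + strand), a microsomal glutathione transferase, was at 122, 121, 113 and 146 in CON and 231, 228, 207 and 171 in BMAL1, the largest rise (log2 fold change 0.74, SE 0.14, *Padj* = 5.14e-04) and the 1 call among 20 genes of glutathione metabolism and NRF2. Its relative *Mgst1* was at 809, 724, 842 and 842 in CON and 1055, 881, 961 and 955 in BMAL1 and did not pass (log2 fold change 0.26, *Padj* = 0.180). *Fam3c*, a secreted interleukin-like protein, was at 322, 329, 321 and 317 in CON and 435, 500.0, 511 and 398 in BMAL1 (log2 fold change 0.52, SE 0.11, *Padj* = 0.00383).

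A pair of sphingolipid kinases rose. *Sphk2*, which makes sphingosine 1-phosphate, was at 201, 191, 175 and 168 in CON and 229, 247, 251 and 249.7 in BMAL1 (log2 fold change 0.41, SE 0.11, *Padj* = 0.0710); it overlaps *Dbp* on the other strand. *Cerk*, ceramide kinase, was at 187, 166, 202 and 184 in CON and 253, 247, 243 and 253 in BMAL1 (log2 fold change 0.43, SE 0.13, *Padj* = 0.0909). Both were called in few of the 8 fits that leave out 1 library, 1 for *Sphk2* and 0 for *Cerk*. *Ppm1m*, a protein phosphatase, was at 92.8, 76.7, 105 and 133 in CON and 184, 179, 148 and 147 in BMAL1 (log2 fold change 0.70, SE 0.18, *Padj* = 0.0467). *Pdxk*, pyridoxal kinase, was at 285, 242, 279 and 272 in CON and 355, 385, 321 and 345 in BMAL1, *Fam114a2* at 488, 495, 478 and 505 in CON and 640.2, 624, 612 and 647 in BMAL1, and *Gm6169* at 104, 75.3, 98.6 and 102 in CON and 146, 124, 153 and 125 in BMAL1, with *Padj* between 0.0909 and 0.0968. These genes were named by a rule that required no overlap between the groups, so its absence in them is a condition of the choice and not a result. The remaining rises, between 0.22 and 0.34 on the log2 scale, included, named after their values were seen, the acute phase gene *Crp* (569 ± 36.02 in CON, 699 ± 26.3 in BMAL1, SD, n = 4), the AP-1 subunit *Jun* (631 ± 24.01, 763 ± 60.6) and the focal adhesion adaptor *Pxn* (707 ± 32.7, 865 ± 75.2).

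No gene passed in the lists of lipid and cholesterol metabolism. Of 24 tested genes of cholesterol synthesis, 13 of uptake and trafficking, 9 of efflux, LXR and bile acid synthesis, 17 of lipogenesis, 17 of fatty acid oxidation, 8 lipid droplet proteins and 7 ChREBP targets and partners, 0 passed, and the list medians of the log2 fold change were between -0.06 and 0.07. The synthesis enzyme *Msmo1* was at 924, 999, 927 and 984 in CON and 823, 723, 852 and 831 in BMAL1 (log2 fold change -0.25, SE 0.09, *Padj* = 0.309). *Srebf2*, the transcription factor of the sterol pathway, was at 1281, 1347, 1383 and 1146 in CON and 1426, 1609.9, 1482 and 1488 in BMAL1 (log2 fold change 0.22, *Padj* = 0.438). The groups did not overlap in either gene, and neither passed. *Soat1*, which esterifies cholesterol, had a log2 fold change of -0.36 (*Padj* = 0.352) and of -0.49 (*Padj* = 0.0168) without CON replicate 1. That library was singled out after its values were seen, so the second *Padj* is not counted as a call. *Txnip*, a ChREBP target, was at 1848 ± 74.3 in CON and 2013 ± 156 in BMAL1, and *Plin2*, a lipid droplet coat protein, at 3497 ± 127 and 3303 ± 100.5 (SD, n = 4). No member of the lists for NF-kB, acute phase proteins (a list without *Crp*), the integrated stress response, endoplasmic reticulum chaperones, DNA replication and mitosis, p53 targets, IGF1 and its binding proteins, or biliary cells passed, nor did the tested markers of stellate cells (2) and of macrophages and leukocytes (4). In the list for DNA replication and mitosis, 17 of 18 genes had a negative log2 fold change (median -0.14), as in *Mcm5* (-0.28, *Padj* = 0.565) and *Rrm2* (-0.22, *Padj* = 0.560).

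**Figure D4:**
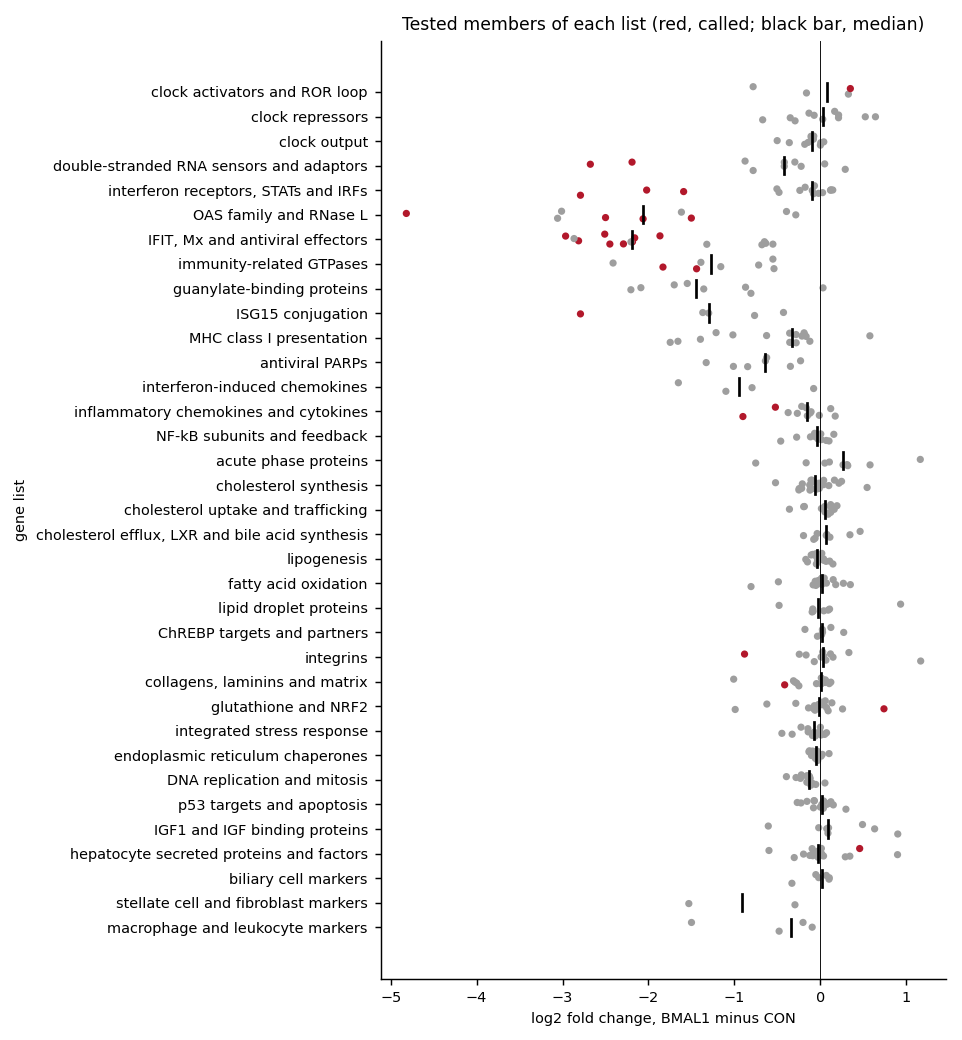
Log2 fold change of BMAL1 against CON (x axis) for the tested members of each gene list (rows), with called genes in red and the median as a black bar. The lists of the interferon response extend to the left, with medians down to -2.19, and medians of the lipid lists lie near 0.

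The study singles out genes for this experiment, 5 of which are given here, and a choice made on these libraries is no independent evidence of their direction. All 5 had a positive log2 fold change and 0 passed. *Abca8b*, an ABC lipid transporter, was at 200.1, 226, 229 and 213 in CON and 252, 274, 264 and 313 in BMAL1, without overlap (log2 fold change 0.35, SE 0.11, *Padj* = 0.140). *Abca1*, which exports cholesterol to apolipoprotein A-I, was at 49.1, 26.03, 25.9 and 38.8 in CON and 33.04, 52.8, 50.5 and 52.9 in BMAL1, with 2 CON libraries above the lowest BMAL1 library (log2 fold change 0.47, SE 0.26). *Igf1* was at 24.6, 10.96, 23.4 and 31.8 in CON and 38.5, 36.6, 30.1 and 32.5 in BMAL1 (log2 fold change 0.63, SE 0.31). Means of *Abca1* and *Igf1* over the 16 libraries were too low for a *Padj*. *Lbh* (0.38, SE 0.19, *Padj* = 0.645) and the hepatocyte pioneer factor *Foxa1* (0.35, SE 0.16, *Padj* = 0.593) overlapped between the groups.

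The same *Bmal1* esiRNA was also given on top of *Chrebp* esiRNA, and BOTH against CHREBP shares no library with BMAL1 against CON. In that setting 138 of 13883 genes were called (0.994%), 117 higher (0.843%) and 21 lower (0.151%). None of the 68 genes was called there in the same direction. *Cars* and *Lgals3bp* were called, both in the other direction. *Lgals3bp* was at 6336 ± 1109 in CHREBP and 9058 ± 779 in BOTH (SD, n = 4), a log2 fold change of 0.52 (*Padj* = 0.00195) against -0.52 in BMAL1 against CON. Of the 19 interferon-list genes that had fallen, 19 had a positive log2 fold change in BOTH against CHREBP, where 49.4% of all tested genes had one, and 0 of the 19 passed there. Of all 96 interferon-list genes, 9 rose in BOTH against CHREBP and 0 fell. *Ifit1* was at 12219 ± 3848 in CHREBP and 21448 ± 5324 in BOTH (log2 fold change 0.81, SE 0.49, *Padj* = 0.682), far above its 2144 ± 1385 in CON. The mean over the 96 interferon-list genes, on the scale of all 24 libraries, was 8.19 to 9.10 in CHREBP and 8.81 to 9.66 in BOTH. The total esiRNA dose was higher in BOTH than in CHREBP and lower in BMAL1 than in CON, so that the direction of the dose also differs between the settings, and its part was not tested.

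Of the genes outside the interferon lists, *Ccl20* had a log2 fold change of 0.09 (SE 0.08) there, *Ccl9* of 0.26 (SE 0.16), *Ttr* of 0.11 (SE 0.07), *Mgst2* of -0.05 (SE 0.15) and *Fam3c* of -0.02 (SE 0.11). *Itga2* was lower in both settings, at -0.32 (SE 0.18, *Padj* = 0.644) in the second, where it did not pass. *Arntl* itself had a log2 fold change of -0.63 (SE 0.29), against -0.78 in BMAL1 against CON. Of the 23 genes that rose, 12 had a positive and 11 a negative value. The difference between the settings was tested as an interaction, which is (BOTH minus CHREBP) minus (BMAL1 minus CON) and so contains the difference by which the genes were called. It was called for 204 of 13883 genes (1.47%) and for 46 of the 68, namely all 19 interferon-list falls, 16 of the other falls and 11 of the rises. The count of 138 fell to 80 with only the 8 libraries compared and to 1 with edgeR on those 8.

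**Figure D5:**
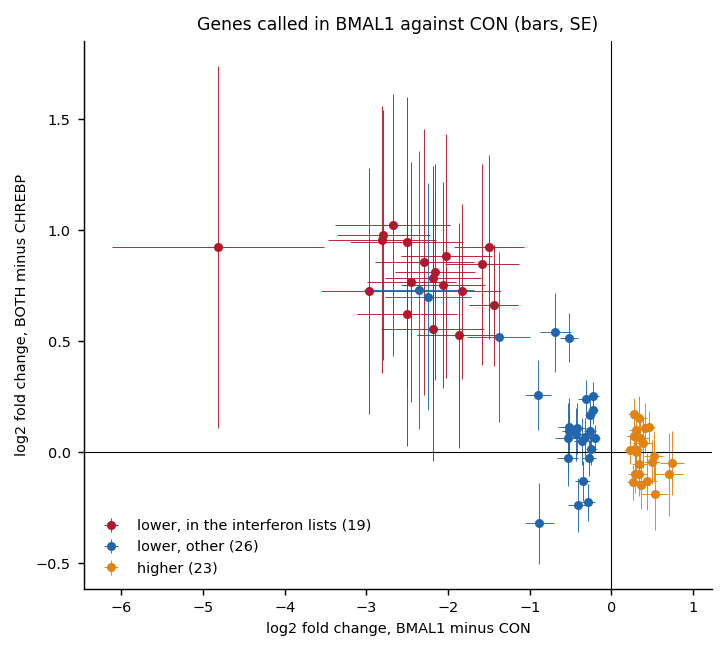
Log2 fold change in BOTH against CHREBP (y axis) against that in BMAL1 against CON (x axis) for the 68 genes called in the latter, with bars for the SE. All 19 interferon-list genes lie below 0 on the x axis and above 0 on the y axis, and the 23 genes that rose lie on both sides of 0 on the y axis.

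Levels in PAL, which had no transfection, are given for scale. PAL was in another library column, so that column and transfection cannot be told apart. On the scale of all 24 libraries, PAL was below the BMAL1 mean in 18 of the 19 interferon-list falls, and in 13 of them every PAL library was below every BMAL1 library. The share of all tested genes with such an order was not computed for any count of PAL against BMAL1 given here, so how unusual these counts are cannot be judged. *Ifit1* was at 27.7 ± 10.7 in PAL (SD, n = 4), 473 in BMAL1 and 2112 in CON, and *Usp18* at 5.06 ± 3.46, 52.9 and 366, as means. The order PAL, BMAL1, CON held for both, with CON replicate 1 below the BMAL1 libraries. The other falls did not share this order: in 21 of the 26, the PAL mean was above the BMAL1 mean, as in *Ccl20* (2475 ± 396 in PAL, 1891 in BMAL1, 2715 in CON) and *Itga2* (172 ± 9.05, 81.6, 150.4). *Ccl9* was an exception, at 83.7 ± 15.5, 101 and 188. Of the 23 genes that rose, 20 had a PAL mean below the BMAL1 mean, as in *Ttr* (1215 ± 115, 1845, 1339.9). The rises and the other falls were called by high or low values in these same BMAL1 libraries. Any other group would therefore tend to lie below BMAL1 in the rises and above it in the other falls. The counts of 20 and 21 are partly set by that choice and mark no trait of these genes.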

How the data were processed

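Expression was measured by BRB-seq, a 3′ end method, in 24 libraries of AML-12 cells in 6 groups of 4. The deposited values were raw counts per gene. The authors demultiplexed the reads with BRB-seq tools, aligned them to mm10 with STAR and counted them with HTSeq (per the labels, featureCounts is also named). Versions, annotation release, use of strand and handling of molecular identifiers were not given in the sources used here. Without a stated use of strand, reads of a gene and of one on the other strand cannot be told apart. The 5 summary lines of the counter were left out, and 55487 genes remained. Positions came from GENCODE M21 (GRCm38, the same build as mm10), in which 55227 gene identifiers matched, and promoters from RefSeq (GRCm38.p6).

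Libraries were grouped by their labels. Genes that reached 25 counts, summed over the 16 esiRNA libraries, were tested with DESeq2 1.42.0 in R 4.3.3 (Wald test, group only, Benjamini-Hochberg *Padj* under 0.1, independent filtering on). The study's methods use DESeq2 with this test for pairwise comparisons, and a likelihood ratio test over the silenced groups, which was not used here. Of 13883 tested genes, 8500 had a *Padj* in BMAL1 against CON. edgeR 4.0.16 (quasi-likelihood) served as an alternative, beside other normalization, filters, libraries in the fit, a replicate block and leaving out each library. Exact permutation tests used scipy 1.17.1. The code for counts was tested on simulated data. Libraries of a group differed beyond sampling noise in every pair (chi-square per degree of freedom 2.69 to 6.02). Depth ranged from 5570803 to 11237474 gene counts in the 8 libraries, and 3 counts, taken as the limit of detection, corresponded to 0.267 to 0.539 CPM, for counting error only.

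Named genes were *Arntl* and *Mlxipl*, the 10 largest rises and falls among called genes with a mean of at least 50 normalized counts and no overlap between groups, genes that the study names, and in each of 37 lists (449 genes) every called member, or, where none or 1 was called, up to 2 members with the lowest unadjusted p. Members and lists were chosen with earlier results of these data known. Some genes that the rule names are not reported here. Values of BSA cells were used only for scaling.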

Additional observations from a re-analysis of the deposited data

Results flagged for a closer look

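For 42 of 90 named genes, the effect of *Bmal1* esiRNA differed with and without *Chrebp* esiRNA at *Padj* under 0.1 in DESeq2 (1.47% of all 13883 tested genes did). The values below are differences of log2 fold changes, (BOTH minus CHREBP) minus (BMAL1 minus CON). Most of these genes were named because they were called in BMAL1 against CON, and this difference contains that comparison, so the count is no independent evidence.

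Among antiviral effectors, the difference was 2.97 for *Ifit1*, 3.22 for *Ifit3*, 3.15 for *Ifit3b*, 2.97 for *Ifitm3*, 3.69 for *Mx2*, 3.77 for *Ifi44*, 2.39 for *Xaf1* and 3.45 for *Cmpk2*. Among regulators and sensors it was 2.90 for *Irf7*, 3.77 for *Usp18*, 2.74 for *Dhx58* and 3.70 for *Zbp1*. For the oligoadenylate synthetases it was 5.74 for *Oas3*, 3.12 for *Oasl2*, 2.82 for *Oas1b* and 2.43 for *Oasl1*, and for GTPases 2.10 for *Irgm2*, 2.55 for *Tgtp1*, 2.32 for *Gbp2* and 2.98 for *Gbp7*. Antigen presentation genes *Tap1* and *Psmb9* had 2.27 and 2.03, *Parp12* and *Parp9* 1.82 and 1.52, and the chemokines *Cxcl10* and *Cxcl9* 2.83 and 1.98. All these interferon-list values were positive, which says that the log2 fold change was higher in BOTH against CHREBP than in BMAL1 against CON, not that it passed in either.

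Outside the interferon lists, positive differences were found for *Areg* (1.23), *Ccl9* (1.16), *Ccl20* (0.62), *Lgals3bp* (1.03), *Nampt* (1.07), *Sdhaf3* (0.64), *Tnnt2* (0.53) and *Phgdh* (0.30), an enzyme of serine synthesis. Negative ones were found for *Mgst2* (-0.79), *Ppm1m* (-0.80), *Gm6169* (-0.73), *Abca8b* (-0.58), *Cerk* (-0.56), *Fam3c* (-0.53), *Fam114a2* (-0.51) and *Ttr* (-0.35).

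In 7 of 180 groups of 4 libraries tested over the named genes, 1 library stood apart from the other 3 by Dixon's 95% criterion, where chance flags about 1 in 20 groups. Normalized counts of these libraries were 33.0 for *Abca1* in BMAL1 replicate 1, 2.75 for *Des* in BMAL1 replicate 1, 18.3 for *Irf7* in BMAL1 replicate 2, 9.71 for *Col1a1* and 135.0 for *Lcn2* in BMAL1 replicate 3, 152 for *Parp9* in BMAL1 replicate 4, and 233.7 for *Nampt* in CON replicate 1.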

How the results depend on the processing

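The count of 68 genes in BMAL1 against CON was 64 with TMM size factors, 94 with all 24 libraries and 75 without the filter on low counts. It was 144 with DESeq2 and 122 with edgeR on the 8 compared libraries alone, 14 with edgeR on the 16 libraries and 33 with independent filtering off. Leaving out 1 library gave 16 to 107 genes: 107 without CON replicate 1, 17, 16 and 32 without CON replicates 2 to 4, and 23, 17, 27 and 26 without BMAL1 replicates 1 to 4. No called direction among the named genes reversed. *Arntl* stayed between -0.92 and -0.64 on the log2 scale when 1 library was left out, and the exact permutation p was 0.0571 on CPM as on log2 values. The 138 genes of BOTH against CHREBP became 80 and 1 with DESeq2 and edgeR on those 8 libraries and 53 with edgeR on 16. Leaving out 1 library gave 56 to 222 (222 without BOTH replicate 4, 212 without CHREBP replicate 1, and 72, 65, 56 and 63 without BOTH replicate 2 and CHREBP replicates 2 to 4). The interaction count of 204 became 122 with edgeR and 104 to 291 with 1 library left out, the lowest without CON replicate 3 (104), CON replicate 2 (112), CHREBP replicates 2 to 4 (129, 121 and 123) and BMAL1 replicate 2 (122). The cause of these differences was not tested. With the replicate number as a block, 22 genes were called in BMAL1 against CON (6 higher and 16 lower), all 22 among the 68, and 100 and 147 in the other tests. The labels do not say that equal numbers share a culture or day, same-numbered libraries correlated at -0.0596 to 0.0481 over 9385 genes and 0 of 4 BMAL1 libraries correlated best with its own number, so the block and the pairing carry no weight in the report. Genes at few counts, *Arntl* among them, were limited by depth.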
